A study of Mus musculus with 2 samples.

Results

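Histone genes were taken as every feature whose symbol matched the histone nomenclature, leaving out major histocompatibility symbols and pseudogene symbols, with at least 50 UMIs (molecule counts) over both libraries. Of 55415 features, 82 matched and 73 reached the minimum. These were 8 linker genes, 57 replication-type core genes, 7 variant genes and H3f3aos, a transcript annotated antisense to H3f3a. The 9 symbols below the minimum were H3f3c, H3c14 and H2bc23 with 0 UMIs, H2ac19 and H4c17 with 1 each, H2ac14 with 3, H1f8 with 13, H1f9 with 15 and H1f7 with 21.

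The cells were mouse embryonic stem cells (mESC) carrying GFP under the promoter of the retrovirus MERVL, which marks a state resembling the 2-cell embryo, and the tracking fusion H2B-mIFP. The groups were MERVL-GFP positive and MERVL-GFP negative, with 1 single-cell library each, and both carry both transgenes. The labels give no clone, strain, culture medium, gate or age, their batch field repeats the group, and the kits they name do not describe a single-cell barcoding step. A difference between the libraries therefore has no replicate check, no test of it was possible, and library and group cannot be told apart. Intervals are 95% intervals for counting error only.

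After the cell filter the libraries held 4596 and 3832 cells, with 138303336 and 156406894 UMIs, and they shared 3 barcodes. The median cell had 29554.5 UMIs in the positive and 39099.5 in the negative library, and the median mitochondrial share was 2.56% and 1.60%. The part of depth and of this share in the differences between the libraries was not tested beyond the range of 10000 to 30000 UMIs and the stricter cell filter. GFP stood at 205 CPM (UMIs scaled to the same total in every library) in the positive and 0.454 CPM in the negative library. All 16 pluripotency markers were detected in both libraries, with summed levels of 16626 and 15822 CPM, or 5127 and 5463 CPM without Dppa5a, which held most of the sum. Summed primitive endoderm markers stood at 1104 against 466 CPM, trophoblast markers at 114 against 69.9 CPM, and fibroblast markers at 16.7 against 3.70 CPM, with 2 of 10 fibroblast markers at 0 in the negative library. Their part in the histone results was not tested beyond leaving out cells with 3 or more endoderm-list UMIs.

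Core histones form the protein spool of the nucleosome, and linker histone H1 binds where DNA enters and leaves it. Replication-type histone genes lie in clusters, are transcribed when DNA is copied, and make mRNAs that end in a short stem-loop instead of a poly(A) tail, although some also make polyadenylated forms. Variant histones are made throughout the cell cycle from ordinary polyadenylated mRNAs and replace core histones at particular places. How the RNA of these libraries was primed is not stated, so what share of stem-loop transcripts could be captured is not known. The cluster genes are near-identical in their coding parts, and how reads shared between copies were counted is not given in the sources used here, so values of single cluster genes are uncertain. The fusion H2B-mIFP also holds an H2B sequence, and whether its transcript adds to an H2B gene was not tested.

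The stem-loop was searched in the annotated coding transcripts of GENCODE vM21, a GRCm38 annotation in which all 73 gene identifiers were found. It was present in 39 of 57 replication-type, 4 of 8 linker and 1 of 7 variant genes, and in 72 of 21901 coding genes, or 0.329%. The stem-loops of 4 genes with large differences (H4c9, H2bu2, H3c1 and H4c11) and of 2 abundant genes with small ones (H2ac8 and H4c4) are shown 5′ to 3′, with the loop in capitals.
H4c9: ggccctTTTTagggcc
H2bu2: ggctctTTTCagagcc
H3c1: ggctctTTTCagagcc
H4c11: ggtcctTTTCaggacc
H2ac8: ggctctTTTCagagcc
H4c4: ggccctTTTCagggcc
Among these, H2bu2, H3c1 and H2ac8 have the same 16 bases. Of the 8 genes at the low ends of the comparisons below, H2ac8, H2ac20, H2bc14, H2ac24 and H2ac18 have a stem-loop, and none was found in the annotated transcripts of H2ac10, H4c12 and H2bc15. In 10 of the 39 the annotated transcript also holds an AATAAA after the stem-loop.

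Between the libraries, replication-type histones as a class were higher in the positive library, whereas in CPM the linker and variant sums were slightly lower. The 57 replication-type genes summed to 1026 CPM (1021 to 1032) in the positive and 628 CPM (624 to 632) in the other library, and the ratio was 1.63 (1.62 to 1.65). The linker sum was 1252 CPM (1246 to 1258) against 1289 CPM (1284 to 1295), and the variant sum was 9054 CPM (9038 to 9070) against 9944 CPM (9928 to 9959). Of all 73 histone genes, 23 were at least 2-fold higher in the positive library on the scale of CPM + 1 and 1 was at least 2-fold lower. Over all 19342 genes with 50 UMIs the shares were 6.43% and 0.589%. All 23 were replication-type. When at least 10 CPM in a library was also required, 12 of 39 genes were higher and 1 lower, against 7.01% and 0.995% of all 8042 genes tested.

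The median log2 ratio of the replication-type genes was 0.82, with 47 of 57 above 0, against a median of 0.16 over all genes with 50 UMIs. Trimmed-mean (TMM) scaling, which moves the median of all genes with 10 CPM from 0.14 to -0.16, gave 0.59 with 44 of 57 above 0, and turned H2ac21, H2ac4 and H4c8 to the other side. TMM also put the replication-type sum ratio at 1.33. The linker median became 0.04 and the variant median -0.38, against 0.29 and -0.08 in CPM, so the size of their differences depends on the scaling. The core families differed. Summed H2B stood at 225 against 101 CPM, a ratio of 2.24 (2.20 to 2.28), and summed H3 at 370 against 180 CPM, a ratio of 2.06 (2.03 to 2.09). Summed H4 had a ratio of 1.68 (1.65 to 1.71), and summed H2A of 0.980 (0.964 to 0.995). The H2A sum rested on H2ac8: without it, a set chosen after the values were seen, the other 16 genes had 109.8 against 76.4 CPM, a ratio of 1.44 (1.40 to 1.47). Of the 17 H2A genes 12 lay above 0, with a median log2 ratio of 0.26, close to the 0.16 over all genes with 50 UMIs.

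Of the replication-type genes, H4c9 (ENSMUSG00000060639, older symbol Hist1h4i, chr13:22040636-22041362, minus strand) had the largest log2 ratio of CPM + 1. Its 8412 positive-library UMIs came to 60.8 CPM (59.5 to 62.1) and its 1220 negative-library UMIs to 7.80 CPM (7.37 to 8.25), which gives a log2 ratio of 2.81. H2bu2 (ENSMUSG00000056895, chr11:58948920-58949533, plus strand), an H2B gene outside the large clusters, had 22.6 CPM (21.8 to 23.4) against 3.63 CPM (3.33 to 3.94), and its log2 ratio was 2.35. H3c15 was at 5.44 against 0.384 CPM, H3c1 at 49.9 against 11.8 CPM and H4c2 at 7.61 against 1.25 CPM, with log2 ratios of 2.22, 1.99 and 1.94. Without the added 1 CPM the ratio of H3c15 was 14.2 (10.9 to 18.8), larger than the 7.80 (7.34 to 8.29) of H4c9. H3c15 and H4c2 were low in both libraries, while H4c9 and H3c1 stood well above 10 CPM in the positive one. H3c3, the replication-type gene with the most UMIs, had 193 CPM (191 to 196) against 94.6 CPM (93.1 to 96.2).

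Of the 57 replication-type genes 10 lay below 0, 5 of them H2A, 3 H2B and 2 H4. H2ac10 (ENSMUSG00000061991, chr13:23533906-23534304, plus strand) had 5.19 CPM (4.82 to 5.59) in the positive and 13.5 CPM (12.9 to 14.1) in the other. Its log2 ratio was -1.23, and it was the only member at least 2-fold lower, a call lost in cells of 10000 to 30000 UMIs. H2ac8, with 14465 and 22285 UMIs, stood at 105 CPM (103 to 106) against 142 CPM (141 to 144), and its log2 ratio was -0.44. H2ac20 was at -0.35, H4c12 at -0.20 and H2bc14 at -0.12. H4c4 lay close to even at 85.8 against 88.2 CPM, and H3c6 was at 54.2 against 40.6 CPM. In cells of 10000 to 30000 UMIs H4c12, H2bc14, H4c4 and the linker gene H1f3 took the other sign, and H3c6 did so for positive-library cells with 0 Zscan4 UMIs.

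Linker genes went both ways. H1f0, the replication-independent H1 known to build up in resting and differentiated cells, had 195 CPM (192 to 197) against 115 CPM (113 to 116), and its log2 ratio was 0.76. H1f10, a single-copy H1 outside the clusters, had 252 against 153 CPM (0.72), and H1f2, a cluster gene, had 79.0 against 49.0 CPM (0.68). The testis H1 gene H1f6 was low, at 3.30 against 1.91 CPM. H1f5 (ENSMUSG00000058773, chr13:21779883-21780625, minus strand), a cluster H1 of dividing cells, had 411 CPM (408 to 415) against 613 CPM (610 to 617), and its log2 ratio was -0.58. H1f4 was also lower in the positive library at 189 against 233 CPM (-0.29), and H1f3 at 45.7 against 49.1 CPM. H1f1 was even, at 76.5 against 75.3 CPM, and its log2 ratio of 0.02 turned negative under TMM, under median-of-ratios scaling and outside ribosomal protein and mitochondrial genes.

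Among the variants, H2ax, whose protein is phosphorylated at DNA breaks, was the clearest exception to the near-even group, with 658 CPM (654 to 662) against 410 CPM (406 to 413) and a log2 ratio of 0.68. H2az1 and H2az2, which encode the forms of H2A.Z found at promoters, stood at 3356 against 3660 CPM and at 529 against 677 CPM, with log2 ratios of -0.12 and -0.36. H3f3a and H3f3b, which encode the same replacement H3, stood at 2166 against 2296 CPM and at 2063 against 2657 CPM, with log2 ratios of -0.08 and -0.37. H2aj was at 281 against 244 CPM, a log2 ratio of 0.20 that turned negative under TMM and median-of-ratios scaling. H3f4, annotated as an unprocessed pseudogene, had 1.27 against 0.422 CPM. The antisense feature H3f3aos had 1.41 CPM (1.22 to 1.62) against 1.23 CPM (1.07 to 1.42), with overlapping intervals. It overlaps H3f3a by 168 bases on the opposite strand, and counting by strand is not stated. H2bc6 and H1f4 overlap by 496 bases on the same strand.

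The positive library is a mixture, so its cells were then divided by Zscan4, a gene family transcribed in short bursts in the 2-cell-like state. Each cell was thinned to 10000 UMIs and the UMIs of 9 Zscan4 features were summed, which left out 194 positive-library cells of lower depth. In the positive library 1438 cells had 0, 1860 had 1 to 4, 745 had 5 to 19, and 359 had 20 or more. In the negative library 3810 of 3824 cells had 0, and the other 14 were too few to describe. A count of 0 after thinning is not absence. Unthinned, that class of the positive library held 48.0 CPM of Zscan4 and 110 CPM of GFP, against 0.812 and 0.454 CPM in the negative library. No histone gene was used for the classes. All classes come from 1 library, so they are not replicates and were not tested.

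Replication-type histones stood higher in each successive Zscan4 class. Their sum was 672 CPM (665 to 679) at 0 Zscan4 UMIs, 829 CPM (822 to 837) at 1 to 4, 1743 CPM (1725 to 1761) at 5 to 19 and 2916 CPM (2878 to 2956) at 20 or more. The highest class over the class with 0 gave a ratio of 4.34 (4.27 to 4.42), and the class with 0 over the negative library gave 1.07 (1.06 to 1.08). The near-even second sum covered opposite differences: of the 57 genes 29 had an interval above 1 and 11 below, with a median ratio of 1.32. Of all genes with 50 UMIs 51.8% and 16.4% had such intervals, so the members' shares were near the background. By family that ratio was 1.33 for summed H2B, 1.22 for H3, 1.07 for H4 and 0.824 for H2A, which became 1.10 (1.06 to 1.14) without H2ac8. Of single genes, H4c9 had 2.72 and H3c15 had 6.79. The linker sum was 1100, 1219, 1577 and 1684 CPM over the same classes, a ratio of 1.53 between the ends. The variant sum was 8774, 9180, 9495 and 9168 CPM, a ratio of 1.04 (1.04 to 1.05).

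**Figure D1:**
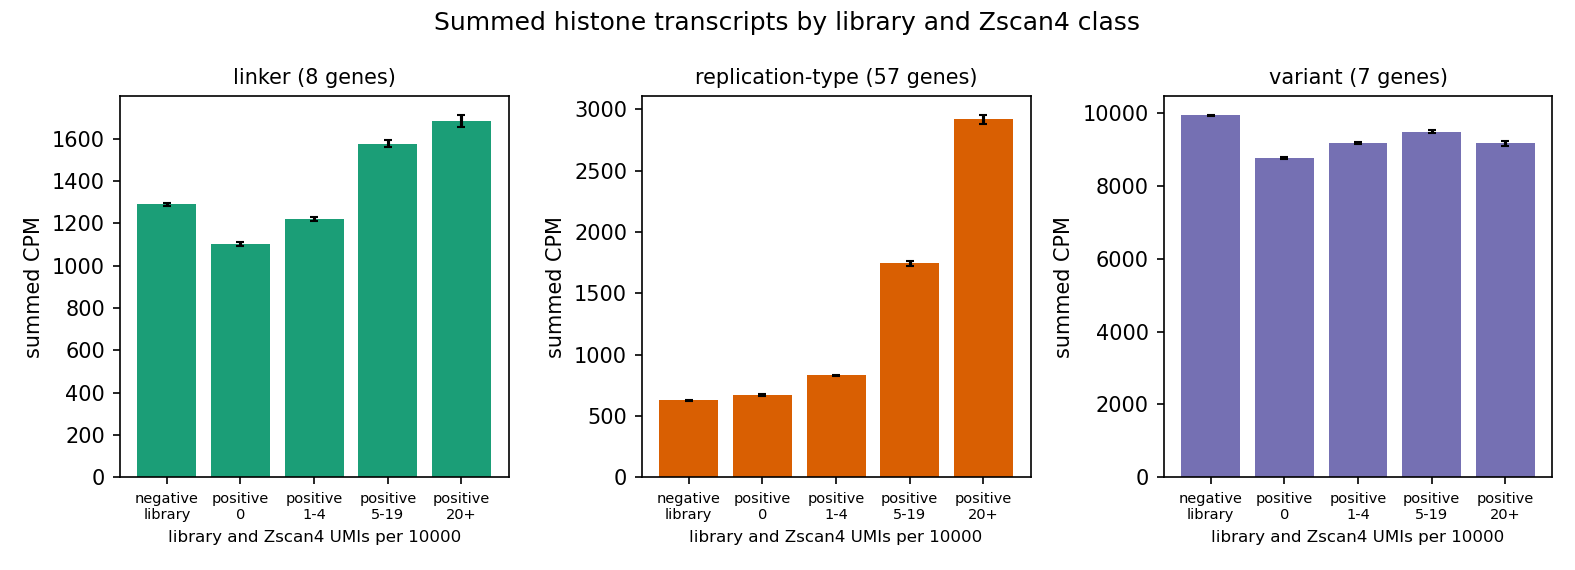
Summed CPM of linker, replication-type and variant histone genes in the negative library and in positive-library cells with 0, 1 to 4, 5 to 19 or 20 or more Zscan4 UMIs per 10000. Bars are sums over all cells of a class and error bars are 95% Poisson intervals; each panel has its own axis from 0, and replication-type transcripts are at 628 CPM in the negative library and go from 672 to 2916 CPM over the Zscan4 classes, while variants lie between 8774 and 9944 CPM.

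The 1104 cells with at least 5 Zscan4 UMIs, called Zscan4-high, were set against the 1438 cells with 0. Of the 73 histone genes, 40 were at least 2-fold higher in Zscan4-high cells and 0 were at least 2-fold lower, against 5.33% and 1.75% of all 19342 genes with 50 UMIs. The 40 were 37 replication-type genes, 2 linker genes and 1 variant. With 10 CPM also required in a class, 34 of 53 were higher and 0 lower, against 7.01% and 2.16% of 8301 genes. The median log2 ratio was 1.41 for replication-type genes, 0.79 for linker genes and 0.09 for variants, against -0.06 over all genes with 50 UMIs. Of the 57 replication-type genes 54 lay above 0, and this number held under every scaling run. Over the 4 Zscan4 classes 50 of the 57 were higher at every step, none was lower at every step, and 7 were neither. Of all 19342 genes with 50 UMIs, 20% were higher at every step.

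All core families took part, H2A least. Zscan4-high over Zscan4-zero cells, summed H3 had 809 against 219 CPM, a ratio of 3.69 (3.61 to 3.78), and summed H2B had 482 against 134 CPM, a ratio of 3.60 (3.49 to 3.70). Summed H4 had a ratio of 3.18 (3.09 to 3.28) and summed H2A 1.78 (1.73 to 1.84), or 2.21 (2.12 to 2.31) without H2ac8. Leaving out H4c9 and H3c3, chosen after their values were seen, the replication-type ratio was 2.74, against 3.06 (3.01 to 3.10) with them. All 11 H3 and all 12 H4 genes were higher at every step of the Zscan4 classes.

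H4c9 again had the largest log2 ratio of CPM + 1. It stood at 21.2 CPM (0 Zscan4 UMIs), 39.7 CPM (1 to 4), 143 CPM (5 to 19) and 258 CPM (20 or more), and Zscan4-high over Zscan4-zero cells gave a ratio of 8.18 (7.64 to 8.75). The ratios that follow in this paragraph are likewise of Zscan4-high over Zscan4-zero cells and not of the end classes. H2bu2 stood at 8.15, 16.4, 44.0 and 106 CPM over the same classes, a ratio of 7.40 (6.63 to 8.28). H3c1 stood at 21.4, 33.3, 111 and 198 CPM, a ratio of 6.27 (5.85 to 6.72). H4c11, low in level, went from 1.37 to 20.1 CPM, and its ratio without the added 1 CPM, 10.7 (8.26 to 14.1), was larger than these. H4c6 went from 1.99 to 19.6 CPM, a ratio of 6.92 (5.52 to 8.73). H3c3 went from 117 to 600 CPM. For each of these 6 genes the intermediate classes lay between the ends, and all 6 were also lower in the negative library than in positive-library cells with 0 Zscan4 UMIs.

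At the low end of this comparison 3 replication-type genes lay below 0, namely H2ac10, H2ac20 and H2bc15. H2ac10 stood at 5.44, 5.43, 4.27 and 4.60 CPM over the 4 classes, H2ac20 at 5.71, 6.04, 5.62 and 3.78 CPM, and H2bc15 had only 33 and 48 UMIs in the positive and negative libraries. Their log2 ratios of -0.27, -0.13 and -0.13 were all small, and each took the other sign in at least 1 alternative. H2ac10 did so without cells with 3 or more endoderm-list UMIs, with unthinned classes and in cells of 10000 to 30000 UMIs, H2ac20 with high counted from 1 Zscan4 UMI, and H2bc15 in thinned cells. H2ac24 was at 0.21 and H2ac18 at 0.24, and H2ac18 also took the other sign in at least 1 alternative. H2ac8 and H4c4, lower or even between the libraries, were higher with Zscan4: H2ac8 went from 96.6 to 168 CPM and H4c4 from 76.8 to 130 CPM between the end classes. H2ac1 and H2bc1, the H2A and H2B genes of male germ cells and eggs, went from 6.90 to 25.7 CPM and from 0.410 to 3.92 CPM; they were picked out after their values were seen.

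**Figure D2:**
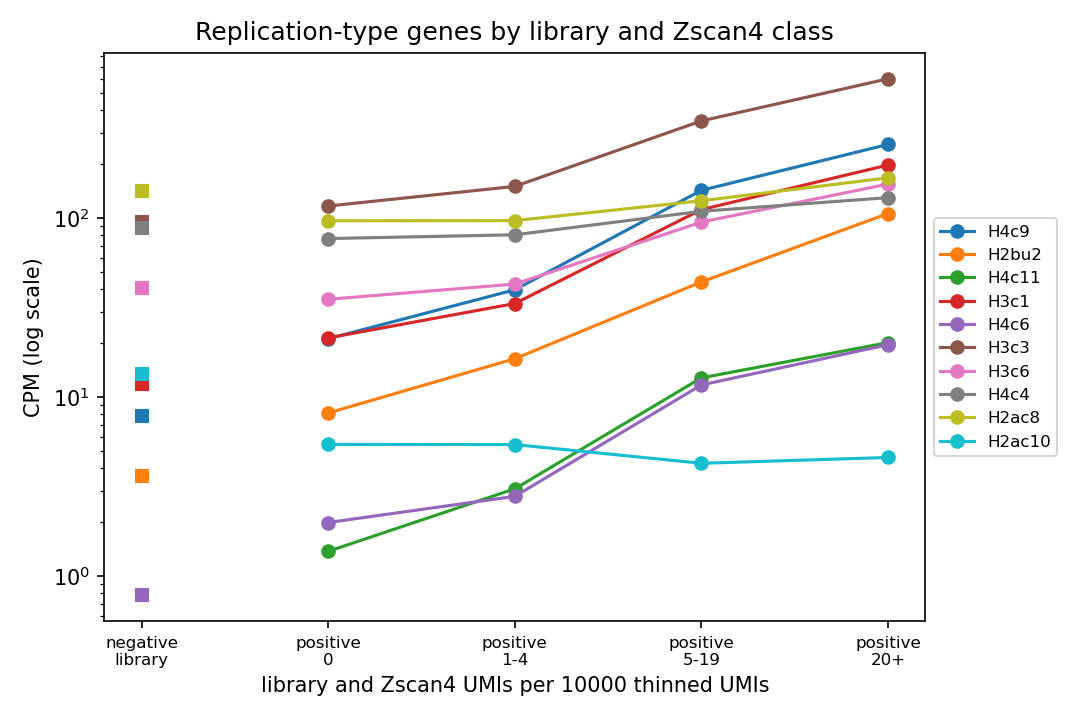
CPM on a log axis of 10 replication-type genes in the negative library (squares) and in positive-library cells by Zscan4 UMIs per 10000 (circles joined by lines). Over the Zscan4 classes H4c9 goes from 21.2 to 258 CPM, H4c4 from 76.8 to 130 CPM, and H2ac10 lies between 4.27 and 5.44 CPM, while in the negative library H4c9 is at 7.80 and H2ac10 at 13.5 CPM.

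Of the 8 linker genes, 7 lay above 0 and 1 below for Zscan4-high over Zscan4-zero cells, against 5 and 3 between the libraries. The share of all genes above 0 was not counted. The medians over all genes with 50 UMIs were -0.06 and 0.16 in these comparisons, so the counts have unlike backgrounds. H1f10 went from 176 CPM at 0 Zscan4 UMIs through 249 and 383 to 417 CPM, with a ratio of 2.22 (2.16 to 2.28) for Zscan4-high over Zscan4-zero cells. H1f2 went from 61.8 to 156 CPM, with a Zscan4-high over Zscan4-zero ratio of 2.03 (1.93 to 2.13). H1f1 and H1f3, near even between the libraries, went from 65.4 to 148 CPM and from 39.3 to 85.7 CPM. H1f0 was highest in the class with 5 to 19, at 153, 189, 294 and 253 CPM. H1f4, lower in the positive than in the negative library, went from 181 to 262 CPM with Zscan4, and H1f6 from 2.57 to 6.22 CPM. H1f5 was at 421, 420, 403 and 357 CPM. Its log2 ratio of -0.11 turned positive without cells with 3 or more endoderm-list UMIs, with unthinned classes and in cells of 10000 to 30000 UMIs.

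Variant genes differed less, H2ax and the low H3f4 excepted. H2ax stood at 523, 632, 947 and 982 CPM, with a Zscan4-high over Zscan4-zero ratio of 1.83 (1.80 to 1.86), and H3f4 went from 0.636 to 5.81 CPM. H2az1 had 3238, 3433, 3480 and 3361 CPM, while H2az2 was lower at every step, at 555, 547, 471 and 388 CPM. H3f3b was higher at every step, from 2009 to 2371 CPM, and H3f3a was at 2176 and 1824 CPM in the end classes. H2aj was at 273 and 237 CPM in the end classes and had a log2 ratio of 0.05 for Zscan4-high cells, which turned negative when CPM was averaged over cells. H2ax is the variant gene in which the stem-loop was found; its annotated transcript runs 822 bases past it.

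**Figure D3:**
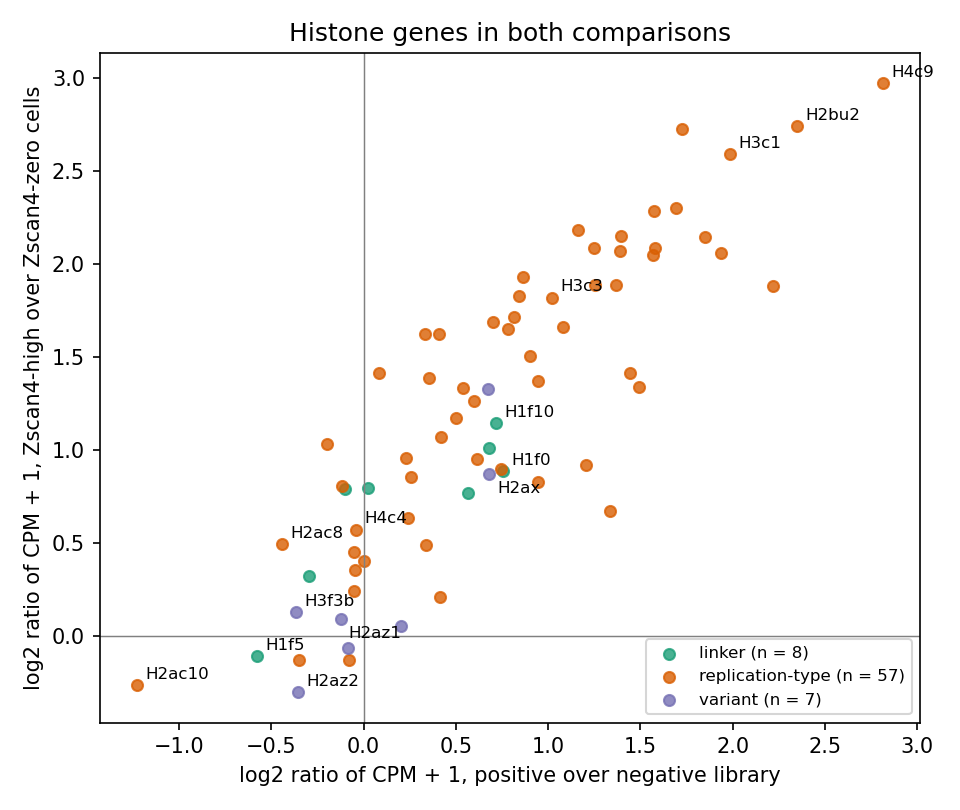
Log2 ratio of CPM + 1 of each histone gene, positive over negative library (x axis) against Zscan4-high over Zscan4-zero cells of the positive library (y axis), by class. The axes share positive-library cells and are shown side by side only; replication-type genes run up to 2.81 and 2.97 (H4c9), and the lowest on both axes but for H2az2 on the y axis is H2ac10 at -1.23 and -0.27.

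The difference was spread over cells and uneven among them. Per 10000 thinned UMIs, the median cell had 6 replication-type UMIs in the negative library, 6 at 0 Zscan4 UMIs, 7 at 1 to 4, 11 at 5 to 19 and 22 at 20 or more. Cells with at least 20 such UMIs made up 0.811% (0.551 to 1.15) of the negative library, 2.16% (1.47 to 3.05) of the class with 0 and 55.2% (49.8 to 60.4) of the class with 20 or more. In that highest class the middle 50% of cells ran from 10 to 39 and the 5th to 95th percentiles from 4 to 76. Some cells with abundant Zscan4 thus lay in the range of the class with 0 thinned Zscan4 UMIs. Without thinning the medians were 23 UMIs in the negative library, 20 at 0 and 45 at 20 or more. H4c9 was seen in 16.6% (14.7 to 18.6) of thinned cells with 0 Zscan4 UMIs and 63.2% (58.0 to 68.2) of those with 20 or more, and in 7.82% (6.99 to 8.72) of thinned negative-library cells. Unthinned, it was seen in 51.0% of the positive library's cells. No cell type in these libraries lacks histones, so the share that free RNA gives could not be measured.

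**Figure D4:**
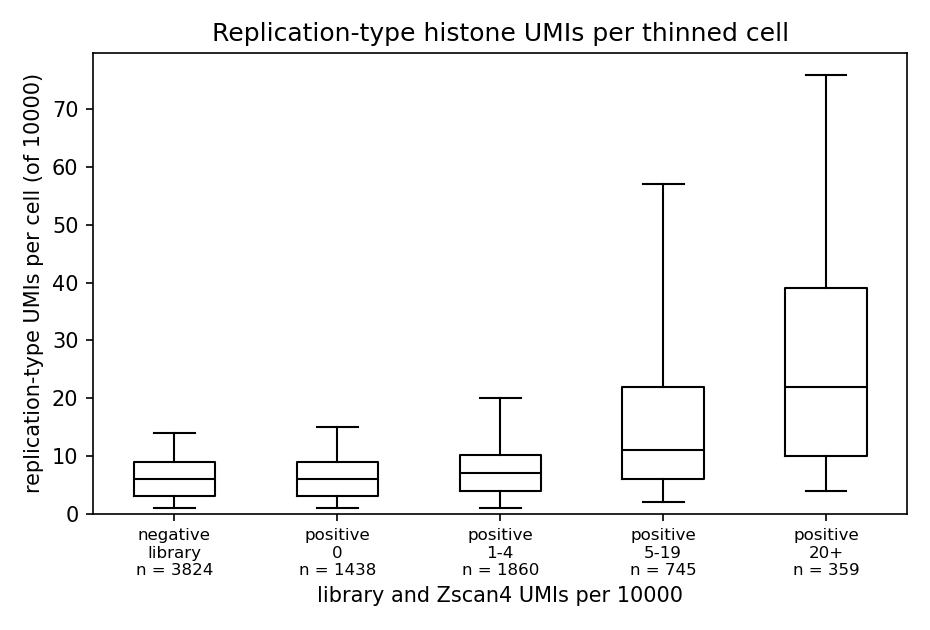
Replication-type histone UMIs per cell after thinning to 10000 UMIs, in the negative library and in positive-library cells by Zscan4 UMIs per 10000, with the number of cells under each box. Boxes span the 25th to 75th percentiles with the median as a line, and whiskers the 5th to 95th; the median goes from 6 to 22.

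Other properties moved with the classes. Median depth was 33146.5 UMIs at 0 Zscan4 UMIs and 23494 in Zscan4-high cells, and the median mitochondrial share was 2.35% and 2.94%. In cells of 10000 to 30000 UMIs only, a choice made after the data were seen, the replication-type ratio was 3.67. Summed pluripotency markers stood at 17923 and 12868 CPM, or 5856 and 3435 CPM without Dppa5a, and endoderm markers at 1187 and 926 CPM. Without cells with 3 or more endoderm-list UMIs, which left 286 and 347 cells, the replication-type ratio was 3.27.

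Because replication-type histones follow DNA synthesis, cells were ordered by a balance: UMIs of an S phase list as a share of those of the S and G2/M lists together, neither holding a histone gene, although they hold Slbp, Nasp, Chaf1b, Mcm2, Casp8ap2, Anp32e and Hjurp of the factor lists. The cells of both libraries were divided at 27.5%, 34.2%, 40.2% and 46.2% into 5 bins of near-equal size, which are ranges of a score and not phases. The least-S bin held 12.0% of negative-library cells, 21.7% of Zscan4-zero cells and 40.4% of Zscan4-high cells.

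In the negative library replication-type transcripts were higher toward S, at 409 CPM (400 to 418), 568, 632, 691 and 705 CPM (697 to 712) over the bins, a ratio of 1.72 (1.68 to 1.77) between the ends. The cluster linker genes H1f5, at 302 and 733 CPM in the end bins, and H1f1, at 41.5 and 92.3 CPM, went the same way, as did H2ac8 at 67.1 and 171 CPM. H1f0 at 147 and 89.4 CPM, H1f10 at 180 and 136 CPM and H2ax at 603 and 322 CPM went the opposite way. H4c9 was at 5.86 and 7.96 CPM. Of the 57 replication-type genes, 51 were higher in the most-S than in the least-S bin of the negative library, 37 of them with an interval above 1, against 39.8% of all genes with 50 UMIs that were higher by any amount.

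In Zscan4-high cells the order was the reverse. Their replication-type sum was 2184 CPM (2156 to 2211) in the least-S bin, then 2108, 2063 and 1660 CPM, and 774 CPM (714 to 837) in the most-S bin, which held 34 cells. Zscan4-zero cells were nearly level, at 638, 699, 703, 653 and 667 CPM. Zscan4-high over Zscan4-zero cells therefore gave ratios of 3.42, 3.01, 2.94, 2.54 and 1.16 over the bins. Positive over negative library gave 2.96, 2.02, 1.59, 1.16 and 0.973. Over the same bins 446 of 1183, 333 of 1088, 196 of 936, 95 of 740 and 34 of 455 positive-library cells were Zscan4-high. The part of this mix in the ratios between the libraries was not tested. In the most-S bin, 6 of 32 histone genes tested were at least 2-fold higher and 2 lower in Zscan4-high cells, against 8.24% and 4.05% of all 8304 genes tested there, a comparison of 34 with 206 cells. The lower count is near that background. The class with 20 or more Zscan4 UMIs had 14 and 8 cells in the 2 most-S bins, and without these it ran from 3051 to 2805 CPM. It made up 158 of 446, 123 of 333, 56 of 196, 14 of 95 and 8 of 34 Zscan4-high cells over the bins. The class with 5 to 19 was not lower at every step, at 1817, 1727, 1854, 1601 and, on 26 cells, 792 CPM. The part of this changing mix in the Zscan4-high sums was not tested.

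**Figure D5:**
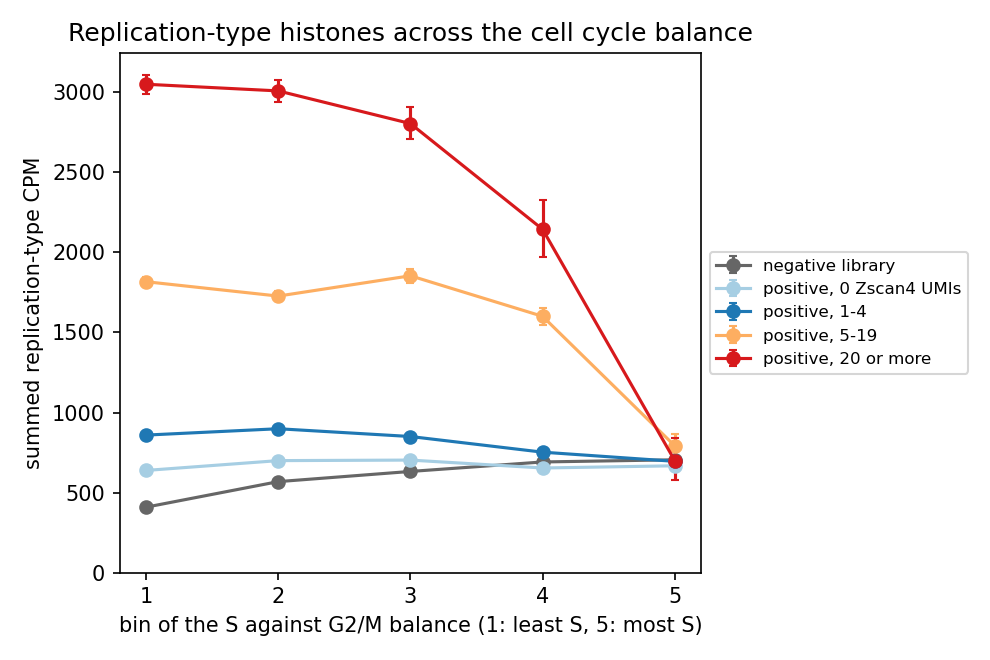
Summed replication-type CPM over bins of the S against G2/M balance (1, least S; 5, most S) in the negative library and in positive-library cells by Zscan4 UMIs per 10000. Error bars are 95% Poisson intervals; the negative library goes from 409 to 705 CPM and the class with 20 or more from 3051 to 700 CPM, the latter on 8 cells.

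Factors that make and handle histone mRNA and protein were counted by the same rule. Of 24 detected genes of histone mRNA transcription and processing, 23 had 10 CPM and 0 were 2-fold higher or lower in either comparison, with medians of 0.04 between the libraries and -0.01 for Zscan4-high cells. Slbp, which binds the stem-loop, had 118 against 158 CPM between the libraries and 132 against 115 CPM in Zscan4-high against Zscan4-zero cells. Npat, which switches on the clusters, had 48.1 against 42.9 CPM in the latter comparison. Of 37 chaperone and deposition genes 0 passed 2-fold in either comparison, with medians of 0.10 and -0.18. At the shares over all genes given above few calls would fall in lists of this length, so the counts of 0 are not a result about these factors. Asf1a, which hands H3 and H4 to the assembly factors, had 118 against 70.2 CPM in Zscan4-high against Zscan4-zero cells, a log2 ratio of 0.74, and Nasp, which stores H3 and H4, had 941 against 779 CPM. Chaf1b, a subunit of the replication-coupled assembly factor, had 22.6 against 31.6 CPM, and Hira, which deposits the replacement H3, 15.8 against 25.2 CPM. These single genes were picked after their values were seen. Other members of the list went both ways, with Ubn1 at 42.5 against 32.5 CPM, Cabin1 at 32.2 against 51.9 CPM and Chaf1a at 48.1 against 57.0 CPM. Outside the symbol rule, Cenpa, the centromeric H3, had 127 against 149 CPM, Macroh2a1 126 against 182 CPM and Macroh2a2 16.3 against 24.2 CPM.

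By position, 46 of the replication-type genes lie in the large histone cluster of chromosome 13, in blocks at chr13:21715763-22043676 with 20 genes and chr13:23531050-23934851 with 26 genes. Their median log2 ratios for Zscan4-high over Zscan4-zero cells were 1.57 and 1.64. The 8 genes at chr3:96219865-96270132 had a median of 0.47, with a range of -0.13 to 1.88. The genes H4c9, H2ac11, H2bc11 and H2bc12 are neighbours, and the others of this group, chosen after their values were seen, had ratios of 4.55 (H2ac11), 5.11 (H2bc11) and 4.85 (H2bc12). By transcript, the 29 genes with a stem-loop and no AATAAA after it had a median of 1.82, the 10 with an AATAAA after it 1.15 and the 18 with no annotated stem-loop 0.99. Their ranges overlapped widely, from -0.13 to 2.97, from 0.49 to 2.75 and from -0.27 to 1.89.

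Promoters were taken from RefSeq (GRCm38.p6) for 65 of the 73 genes, and the 250 bases before the start were searched on both strands for TATAAA (the TATA box), for CCAAT (the box bound by NF-Y), for ATTTGCAT (the octamer bound by POU factors) and for the Dux motif, named for a homeobox factor of the 2-cell stage. CCAAT was found in 42 of 51 replication-type promoters (82.4%) and 33.8% of all 32851 promoters, TATAAA in 47.1% and 12.4%, and ATTTGCAT in 25.5% and 1.60%. The Dux motif was found in 0 of 51 and in 10 of all promoters. ATTTGCAT was found in 7 of 17 H2A and 6 of 14 H2B promoters, and in 0 of 9 H3 and 0 of 11 H4 promoters. Some H2A and H2B genes lie head to head with overlapping windows, such as H2ac8 and H2bc8 (chr13:23571150-23571399). A match can then count for both genes of a pair, so these promoters are not independent. H2A and H2B genes with it had a median log2 ratio of 0.85 for Zscan4-high cells (13 genes), and those without it 1.57 (18 genes), with overlapping ranges of -0.13 to 2.18 and -0.27 to 2.75. The promoters of replication-type genes at both ends are shown 5′ to 3′ on the gene's strand, with matches to these motifs on either strand in capitals. H4c9 (chr13:22041363-22041612, minus) and H2bu2 (chr11:58948661-58948910, plus) had the largest log2 ratios of CPM + 1 in Zscan4-high cells. H2ac8 (chr13:23571221-23571470, minus) holds the octamer. H2ac10 (chr13:23533625-23533874, plus) had the lowest log2 ratio of CPM + 1 of the replication-type genes.
H4c9: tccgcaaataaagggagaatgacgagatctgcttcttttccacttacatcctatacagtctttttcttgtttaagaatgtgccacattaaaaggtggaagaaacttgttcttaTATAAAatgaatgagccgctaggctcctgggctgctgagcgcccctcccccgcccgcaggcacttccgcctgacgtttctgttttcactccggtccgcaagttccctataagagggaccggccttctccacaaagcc
H2bu2: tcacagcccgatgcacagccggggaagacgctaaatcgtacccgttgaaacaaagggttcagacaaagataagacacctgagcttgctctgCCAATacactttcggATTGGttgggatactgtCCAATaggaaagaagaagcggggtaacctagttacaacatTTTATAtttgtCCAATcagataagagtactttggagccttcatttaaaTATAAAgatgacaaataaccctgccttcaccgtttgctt
H2ac8: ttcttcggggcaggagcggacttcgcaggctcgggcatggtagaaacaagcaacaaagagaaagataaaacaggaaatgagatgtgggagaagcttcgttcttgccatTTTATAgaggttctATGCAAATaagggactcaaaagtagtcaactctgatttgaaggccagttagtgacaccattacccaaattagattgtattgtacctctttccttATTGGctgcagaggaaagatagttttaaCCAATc
H2ac10: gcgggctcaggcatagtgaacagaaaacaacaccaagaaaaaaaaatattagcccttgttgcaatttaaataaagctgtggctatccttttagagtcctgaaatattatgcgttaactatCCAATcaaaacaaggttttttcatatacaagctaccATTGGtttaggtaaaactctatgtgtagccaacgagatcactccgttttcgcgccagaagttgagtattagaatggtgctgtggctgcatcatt
The H4c9 window holds TATAAA and no CCAAT, the H2bu2 window holds both, and the H2ac10 window holds CCAAT alone. The H2ac8 window holds all but the Dux motif, with its matches in the stretch shared with the H2bc8 window. A match is a description of letters and not of binding.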

How the data were processed

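The deposited files give 1 whole-number count for each gene in each cell, which is read here as UMIs. FastQC 0.11.2, Trim Galore 0.6.4, STAR 2.7.6a and build mm10 are named in the submitters' processing notes; annotation, cell calling and molecule counting are not given in the sources used here. Cells needed 1000 UMIs, 500 genes and at most 20% mitochondrial UMIs, which removed 7 positive-library cells. Doublets were not called. UMIs were summed per library or Zscan4 class and scaled to CPM; ratios are log2 of CPM + 1, and a call needed 2-fold, 50 UMIs and, in the main rule, 10 CPM. No test was run, since each group has 1 library. Intervals are exact (Poisson, conditional for ratios, Clopper-Pearson for shares) and PCR copies could widen the true error. Thinning drew 10000 UMIs per cell.

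Named genes were all linker and variant members, the 5 replication-type genes with the most UMIs, the 5 with the largest log2 ratio in each direction of each comparison, and factor-list members past 2-fold; Slbp, Npat, Asf1a, Nasp, Chaf1b, Hira, Cenpa, Macroh2a1, Macroh2a2, H2ac11, H2bc11, H2bc12, H2ac1 and H2bc1 were added after their values were seen. Members and lists were chosen with earlier results of these data known. On simulated data for either comparison, with 55415 genes each, the call rule recovered 100% of 100 genes changed 2.5-fold and of 100 changed 4-fold, with 0 false calls. The simulated counts held counting error only, and the changed genes had at least 10 CPM and folds above the 2-fold cut. This outcome was therefore nearly fixed beforehand and says nothing about spread between cells or libraries. TMM factors came from edgeR 4.0.16 in R 4.3.3; all else was computed in Python 3.11.15 with pandas 2.3.3, scipy 1.17.1 and numpy 2.4.6, and plotted with matplotlib 3.10.9.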

Additional observations from a re-analysis of the deposited data

Results flagged for a closer look

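The libraries went opposite ways over the S against G2/M balance, a difference that was not tested because each group has 1 library. For the most-S bin over the least-S bin, the replication-type sum had a ratio of 0.566 (0.554 to 0.578) in the positive and 1.72 (1.68 to 1.77) in the negative library. For linker genes the ratios were 0.897 and 1.61, and for variants 0.977 and 1.04. Within the positive library the replication-type ratio was 1.05 (1.01 to 1.09) in cells with 0 Zscan4 UMIs and 0.354 (0.327 to 0.383) in Zscan4-high cells. Zscan4-high cells were 446 of 1183 positive-library cells in the least-S bin and 34 of 455 in the most-S bin. The part of this mix was not tested.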

How the results depend on the processing

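No paired analysis was possible because 1 library stands for each group, so none could be left out either. Between the libraries the replication-type sum was higher in the positive library in every setting but the most-S bin, which gave 0.973; the other bins gave 2.96, 2.02, 1.59 and 1.16. It was 1.07 for cells with 0 Zscan4 UMIs, 1.33 under both TMM and median-of-ratios scaling, 1.59 outside ribosomal protein and mitochondrial genes, 1.62 with the stricter cell filter, 1.60 without cells with 3 or more endoderm-list UMIs, 1.77 thinned, 1.78 with CPM averaged over cells and 2.37 in cells of 10000 to 30000 UMIs, a setting chosen after seeing the data. The 12 higher members became 23 without a CPM minimum, 20 at 1.5-fold, 2 at 4-fold, 2 for cells with 0 Zscan4 UMIs, 21, 4 and 0 in balance bins 1, 4 and 5, and 21 in cells of 10000 to 30000 UMIs. The 1 lower member became 0 at 4-fold, in bins 1 and 2 and at 10000 to 30000 UMIs. The replication-type median of 0.82 became 0.23 for cells with 0 Zscan4 UMIs and 1.36, 0.37 and 0.20 in bins 1, 4 and 5; the linker median of 0.29 was 0.043 under TMM, 0.045 under median-of-ratios scaling, 0.0022 for cells with 0 Zscan4 UMIs and 0.70, 0.49, 0.27, 0.060 and -0.070 over the 5 bins, and the variant median of -0.08 became -0.38 under both TMM and median-of-ratios scaling.

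For Zscan4-high against Zscan4-zero cells the replication-type ratio of 3.06 was 3.11 under TMM, 3.14 under median-of-ratios scaling, 3.24 with CPM averaged over cells, 3.27 thinned and likewise without cells with 3 or more endoderm-list UMIs, 4.34 from 20 UMIs, 1.81 from 1 UMI, 2.98 at 5000-UMI thinning, 3.47 unthinned, 3.42, 3.01, 2.94, 2.54 and 1.16 over the bins and 3.67 at 10000 to 30000 UMIs. The 34 higher members became 14 at 4-fold, 11 from 1 UMI and 6 in bin 5, where 2 were lower instead of 0. The median of 1.41 became 1.99 from 20 UMIs, 0.73 from 1 UMI and 0.22 in bin 5, and the variant median of 0.09 turned to -0.10 there. Of single named genes, 196 of 429 values between the libraries and 165 of 528 within the positive library moved beyond counting error; 21 and 14 took the other sign, none of a member past 2-fold. The causes were not tested, except that stricter thresholds lower counts by construction.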
